A study of Mus musculus with 47 samples.

Results

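The maxillary crest libraries of mid-gestation mouse embryos (labelled E10.5, days of embryonic development) were set against the other crest of the same face. The maxillary group, labelled Mx, holds 2 libraries of 11 wild-type libraries at E10.5 and of 47 in the whole series, chosen by their labels for subpopulation, age and genotype. The other 9 are 3 libraries each of the frontonasal process (FNP), the mandibular part of the first arch (Md) and the second pharyngeal arch (PA2). Tissue was micro-dissected and trypsinised, and cranial neural crest cells were collected by fluorescence-activated sorting. The reporter or Cre driver behind the sort is not named in the labels used here. The labels number the replicates without saying whether they are separate embryos or litters, so p-values measure only the spread between these samples, which may be technical. Separate groups served for comparison: wild-type Mx, FNP, Md and PA2 of E11.5 (3 libraries each), and the same 4 subpopulations of E10.5 with the genotype Ezh2cKO, a conditional knockout of Ezh2 (3 libraries each).

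Cranial neural crest cells leave the dorsal neural tube and form most of the skeleton and connective tissue of the face, and also the glia and part of the sensory neurons of the cranial ganglia. The maxillary prominence gives rise to the upper jaw and to much of the palate, and the LIM homeobox factors Lhx6 and Lhx8 mark its mesenchyme and that of the oral side of the mandibular arch. Dlx genes pattern the arches from proximal to distal: Dlx1 and Dlx2 are expressed along the whole arch, whereas Dlx3, Dlx5, Dlx6, Hand1 and Hand2 belong to its distal part, under endothelin signalling. The trigeminal ganglion lies next to the maxillary prominence, and its sensory neurons arise from neural crest and from placodes through Neurog1, Neurod1, Pou4f1 and Isl1. Genes of maxillary mesenchyme and genes of sensory neurons are therefore described apart below.

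Library totals at E10.5 were 18.8 to 35.7 M counts (M for 1e6), with 35.7 and 30.5 M in the Mx libraries. Levels are counts per 1e6 of the library total after TMM scaling (CPM). Mitochondrial genes took 21.8% and 22.6% of counts in Mx, within 19.9 to 24% in Md and PA2, and 28.2 to 33.6% in FNP. The Mx pair differed by a chi-square of 6.58 per degree of freedom, where 1 is counting noise alone, and FNP replicate 1 stood apart from the other 2 FNP libraries (42.3 and 44.4, against 6.19 between those 2). Of 38215 genes, 20560 passed the filter on low counts and were tested. Against the mean log2 level of the other 3 subpopulations, 898 genes were higher in Mx and 598 lower, that is 4.37% and 2.91% of genes tested (7.28% together), at an adjusted p under 0.05 from edgeR's quasi-likelihood test. Without Mx replicate 1 the counts were 562 higher and 308 lower, and without Mx replicate 2 there were 255 lower genes. Both counts rest on the spread that all 16 groups of the series share.

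The markers of maxillary mesenchyme were highest in the libraries labelled Mx. Lhx6 (ENSMUSG00000026890, chromosome 2, 36081950 to 36105408 on GRCm38, minus strand) was at 152 and 151 CPM in the Mx libraries, at 0.989, 0.786 and 0.879 CPM in FNP, at 84.6, 74.6 and 61.1 CPM in Md, and at 6.02, 5.08 and 3.29 CPM in PA2. Both Mx libraries lay above all 9 others, Md came next, and FNP was lowest. The log2 fold change against the mean of the 3 was 4.48 ± 0.17 (SE; adjusted p from edgeR's quasi-likelihood test 8.5e-23), and against Md alone it was 1.04 ± 0.21 (adjusted p 0.00047). Lhx8 (ENSMUSG00000096225, chromosome 3, 154306288 to 154330651, minus strand) was at 161 and 162 CPM in Mx, 17.0, 13.7 and 15.4 CPM in FNP, 106, 104 and 107 CPM in Md, and 22.0, 22.5 and 15.3 CPM in PA2. It showed the same order with a smaller gap, 2.34 ± 0.14 on the log2 scale against the mean and 0.61 ± 0.18 against Md (adjusted p 0.028). Per kilobase of exon the Mx level was 31.2 CPM for Lhx6 and 62.9 CPM for Lhx8, so Lhx8 was the more abundant of the pair on that scale.

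Foxl2, a forkhead factor known from the ovary and the eyelid, had the highest fold of the maxillary list. Foxl2 (ENSMUSG00000050397, chromosome 9, 98955607 to 98958126, plus strand) was at 10.3 and 7.27 CPM in Mx, at 0.712, 0.752 and 0.977 CPM in FNP, at 0.0424, 0.0825 and 0.0531 CPM in Md, and at 0 in the 3 PA2 libraries. Mx lay above all others, and among those only FNP came near 1 CPM. With 0 counts in PA2, the Mx level was at least 197-fold higher than the 3 counts over that group that a count of 0 allows; such floors and intervals cover counting error only. The fitted log2 fold change against the mean, 7.21 ± 0.39, depends on the prior count for that reason, while those against FNP (3.42 ± 0.35) and Md (7.10 ± 0.53) rest on counts. On the opposite strand, 296 bases upstream of Foxl2, begins the non-coding gene AC120148.1 (ENSMUSG00000097072, chromosome 9, 98949155 to 98955310). It was at 30.7 and 33.0 CPM in Mx, 1.98, 1.71 and 1.95 CPM in FNP, 0.552, 0.165 and 0.212 CPM in Md, and 0.136, 0.210 and 0 CPM in PA2. The neighbours thus had the same order of groups, and AC120148.1 rose by 6.24 ± 0.27 on the log2 scale. The library kit kept no strand, but the annotated genes do not overlap.

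The windows just upstream of the start sites of 3 genes are shown as a description, and no result rests on their letters. The genes are the marker Lhx6, Foxl2 with the divergent start of AC120148.1 close by, and Nhlh1, a neuronal factor described further on. Each window holds 250 bases on GRCm38.p6 from RefSeq, 5′ to 3′ on the gene's strand, for Lhx6 chr2:36105409-36105658 (minus), for Foxl2 chr9:98955357-98955606 (plus) and for Nhlh1 chr1:172057597-172057846 (minus). Capitals mark CAGATG, an E-box letter string searched on both strands together with TAATTA, a homeobox letter string. Only the Nhlh1 window holds a match, 1 CAGATG, and no match overlaps another.
Lhx6: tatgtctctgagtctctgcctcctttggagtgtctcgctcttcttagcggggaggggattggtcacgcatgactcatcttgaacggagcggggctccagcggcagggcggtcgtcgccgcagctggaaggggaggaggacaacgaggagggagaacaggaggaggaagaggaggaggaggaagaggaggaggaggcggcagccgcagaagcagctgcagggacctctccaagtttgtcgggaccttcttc
Foxl2: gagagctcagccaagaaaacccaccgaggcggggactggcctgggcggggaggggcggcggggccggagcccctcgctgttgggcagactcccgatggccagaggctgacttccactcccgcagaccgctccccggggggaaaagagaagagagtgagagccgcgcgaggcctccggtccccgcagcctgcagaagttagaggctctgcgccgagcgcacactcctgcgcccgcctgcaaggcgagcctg
Nhlh1: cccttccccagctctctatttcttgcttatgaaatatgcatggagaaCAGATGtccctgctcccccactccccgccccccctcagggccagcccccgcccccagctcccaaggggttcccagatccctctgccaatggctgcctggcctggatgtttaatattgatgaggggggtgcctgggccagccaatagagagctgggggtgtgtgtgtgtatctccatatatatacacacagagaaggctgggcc
CAGATG occurred in 14.4% of the 32851 promoter windows of this length, and in 3 of the 16 sensory neuron factors, 6 of the 18 neuron structure genes and 1 of the 10 maxillary genes that matched the table. TAATTA occurred in 4.84% of all windows, in 1 of 16, 2 of 18 and 0 of 10 of these. The shares over all windows count each window singly, whereas a listed gene counts as a match if any of its windows holds the letters. A gene with several windows has more chances to match, so the list counts and these shares are not like for like. A match is a description of letters, and its absence says only that the letters are not in the window.

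**Figure D1:**
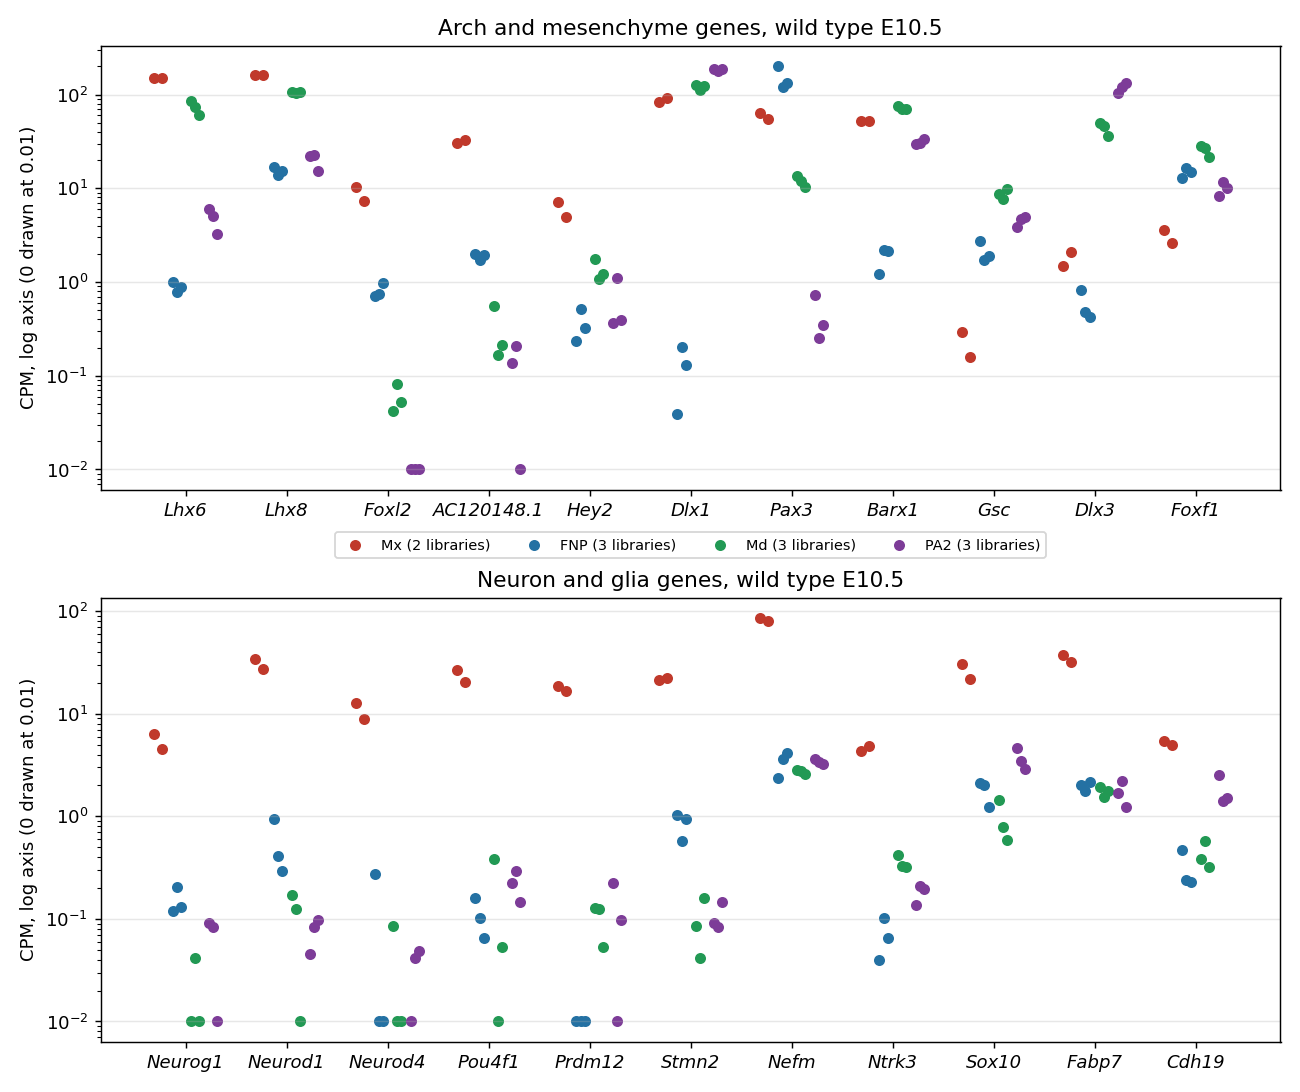
CPM on a log axis (counts of 0 drawn at 0.01) of single genes for all 11 libraries of wild-type E10.5 crest, 1 point per library, coloured by subpopulation; the upper panel holds arch and mesenchyme genes, the lower panel neuron and glia genes. In the lower panel both Mx points lie above the 9 others for each of the 11 genes, while in the upper panel Dlx1, Pax3 and Barx1 are as high or higher in another group.

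The maxillary and proximal arch list had 14 genes, all tested, and 11 were higher in Mx than the mean of the others and none lower (1 lower at an unadjusted p under 0.05), beside 4.37% and 2.91% of all genes. Its median log2 fold change was 1.84, against 0.00 over all genes tested. The mean of log2 levels is low wherever one group is near 0, so a gene can be higher than that mean and still be lower than another group. The summed level of the list was 1216 ± 15 CPM in Mx (SD, n = 2), 403 ± 13.4 CPM in FNP, 1226 ± 11.2 CPM in Md and 1475 ± 121 CPM in PA2 (n = 3 each). Against single groups, 11 were higher and 2 lower than FNP (7.69% and 8.85% of all genes, together 16.5%), 5 higher and 4 lower than Md (3.97% and 2.64%, together 6.61%), and 6 higher and 5 lower than PA2 (4.62% and 4.14%, together 8.76%). Only Lhx6, Lhx8 and Foxl2 of the list had both Mx libraries above all 9 others, beside 4.83% of all genes. The shares of all genes given here, against the mean and against single groups, also stand beside the wild-type E10.5 counts of the lists below.

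The proximal Dlx genes were far higher in Mx than in FNP. Dlx1 was at 82.4 and 91.9 CPM in Mx, 0.0395, 0.205 and 0.130 CPM in FNP, 125, 111 and 124 CPM in Md, and 188, 176 and 189 CPM in PA2. Mx lay far above FNP and below every library of both other arch groups, with log2 fold changes of 9.36 ± 0.23, -0.46 ± 0.14 and -1.08 ± 0.14. Dlx1 lies within the span of Dlx1as on the opposite strand, and without strand the counts of the pair cannot be told apart. Dlx2 was at 36.1 and 37.9 CPM in Mx, 8.25 ± 0.30 above FNP, and did not pass the test against Md or PA2. Sim2, a bHLH-PAS factor, was at 11.4 and 11 CPM in Mx, between 0 and 0.0651 CPM in FNP, 13.5 ± 1.36 CPM in Md and 25.3 ± 0.892 CPM in PA2. It too was lower in Mx than in PA2, by a log2 fold change of -1.17 ± 0.22. Pou3f3, a POU factor of the proximal arches, parted the other way: it was at 34.1 and 40.0 CPM in Mx, 31.7 ± 5.76 CPM in PA2 and 4.00 ± 0.367 CPM in Md.

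Genes of palate and tooth mesenchyme, 14 listed and tested, gave 4 higher and none lower against the mean, with a median log2 fold change of 0.16. The 4 were Barx1, Fgf10, Osr1 (not called without Mx replicate 1) and Runx2. Barx1, a homeobox factor of molar mesenchyme, was at 52.2 and 51.7 CPM in Mx, 1.23, 2.19 and 2.15 CPM in FNP, 75.3, 69.9 and 70.0 CPM in Md, and 29.9, 30.4 and 33.8 CPM in PA2. Md was highest, although the difference from Mx did not pass the test (log2 fold change -0.47 ± 0.20, adjusted p 0.22). Fgf10, a mesenchymal growth factor, was at 25.0 and 20.7 CPM in Mx and at 19, 17.9 and 19.4 CPM in Md, which the test did not tell apart either (adjusted p 0.77). Runx2, the regulator of bone formation, was higher in Mx than in each other group (41.9 and 38.1 CPM, against 14.3 to 29.7 CPM in the 9 others).

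General crest mesenchyme genes had similar summed levels in all 4 groups. The 12 listed genes summed to 3025 ± 112 CPM in Mx, 2915 ± 81.5 CPM in FNP, 2944 ± 82.8 CPM in Md and 2699 ± 123 CPM in PA2. Of these 12, 5 were higher in Mx against the mean and 2 lower, beside 4.37% and 2.91% of all genes. Against single groups, 1 was higher and 5 lower than FNP, 3 higher and 1 lower than Md, and 7 higher and 2 lower than PA2. The sum is weighted to the most abundant genes, so similar sums do not mean that single genes were alike. Prrx1, a homeobox factor of facial and limb mesenchyme, was at 1175 and 1155 CPM in Mx, 434 to 487 CPM in FNP, 997 to 1033 CPM in Md and 579 to 677 CPM in PA2. Its difference from Md was within 0.20 ± 0.10 on the log2 scale and did not pass the test (adjusted p 0.42). Pdgfra, the receptor of crest mesenchyme, was lower in Mx (255 and 240 CPM, against 292 to 485 CPM), and Foxc1, a forkhead factor, was lower than FNP and PA2 but not than Md by the test.

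Frontonasal regulators held an intermediate level in Mx. Of 10 genes, 7 were higher in Mx than the mean and 1 lower (median log2 fold change 0.70); against FNP alone 1 was higher and 8 lower, against Md 7 higher and 1 lower, and against PA2 8 higher and none lower. Pax3, a paired factor of early crest, was at 63.9 and 55.2 CPM in Mx, 201, 120 and 132 CPM in FNP, 13.5, 12 and 10.3 CPM in Md, and 0.724, 0.252 and 0.344 CPM in PA2. The 4 groups did not overlap, and each step passed the test, with -1.34 ± 0.20 against FNP, 2.31 ± 0.20 against Md and 7.07 ± 0.29 against PA2 on the log2 scale. Tfap2b, an AP-2 factor, was at 50.3 and 43.6 CPM in Mx, 380, 330 and 324 CPM in FNP, and under 1 CPM in each library of Md and PA2. Alx1 followed the same order, with 46.0 ± 6.74 CPM in Mx, 219 ± 23.5 CPM in FNP, 16.8 ± 1.37 CPM in Md and 1.73 ± 0.229 CPM in PA2. Pax7 had the same order at a far lower Mx level, with 0.452 and 0.283 CPM in Mx, 226, 168 and 186 CPM in FNP, and at most 0.0424 CPM in Md and PA2.

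**Figure D2:**
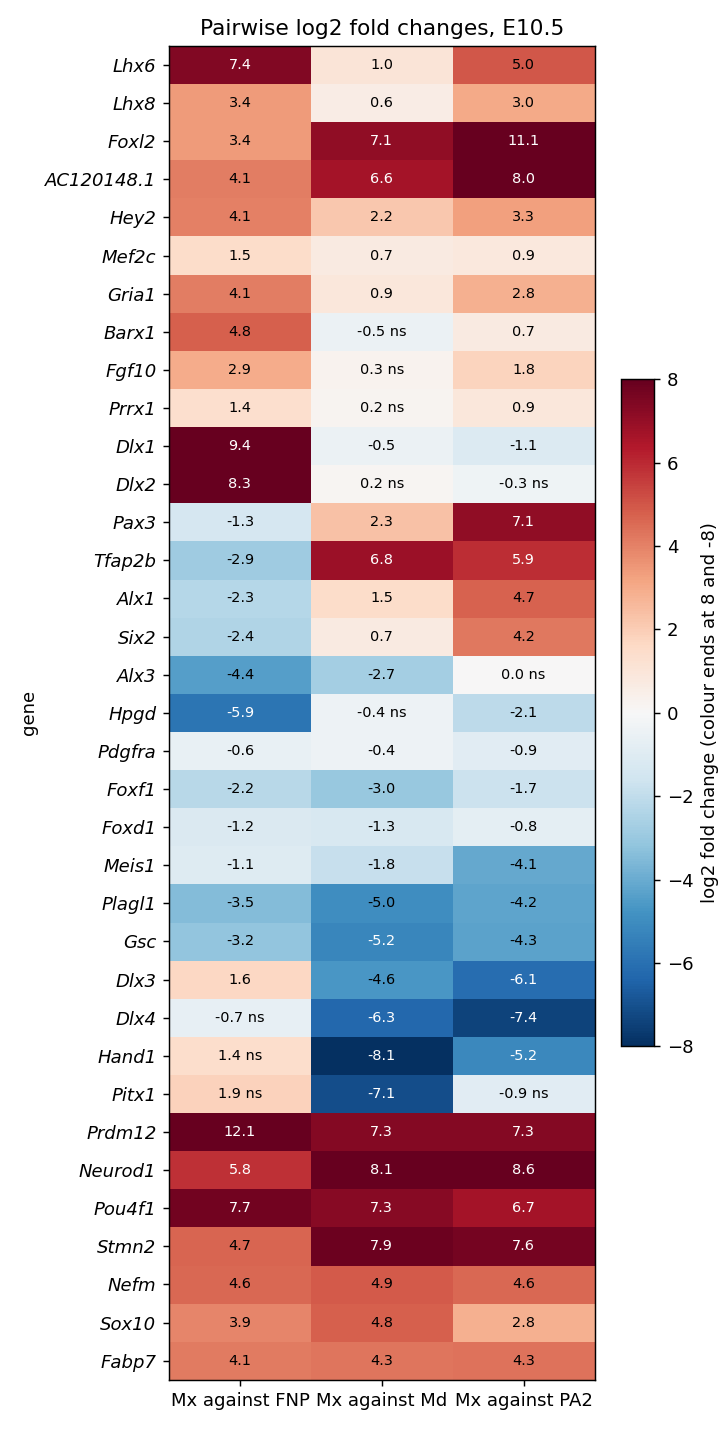
Log2 fold change of Mx against FNP, Md and PA2 singly at E10.5 for chosen genes (rows), as colour and number; "ns" marks an adjusted p of 0.05 or more. Lhx6 and Lhx8 are positive in each column, Dlx1 is 9.4 against FNP and negative against both arches, Pax3 is negative only against FNP, and Gsc is negative in each column.

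Distal arch regulators were lower in Mx than in Md and PA2. Of 11 listed genes 10 were tested, and 8 were lower than the mean and 1 higher (Msx2, also on the crest list and not called when either Mx library was left out), beside 2.91% and 4.37% of all genes. Against single groups, 5 were higher and 1 lower than FNP, 9 lower than Md with none higher, and 8 lower than PA2 with 1 higher. The list summed to 73.9 CPM in each Mx library, against 53.2 ± 7.29 CPM in FNP, 572 ± 34.5 CPM in Md and 551 ± 21.0 CPM in PA2. Gsc, a homeobox factor of the distal arch, was at 0.292 and 0.157 CPM in Mx, 2.73, 1.71 and 1.89 CPM in FNP, 8.70, 7.72 and 9.71 CPM in Md, and 3.89, 4.74 and 4.96 CPM in PA2. It was lowest in Mx without overlap, lower by -4.22 ± 0.33 on the log2 scale against the mean and lower than each group singly. Dlx5 showed a graded pattern instead, with 20.2 and 21.5 CPM in Mx, above the 3.40 to 5.34 CPM of FNP and below the 137 to 170 CPM of Md and PA2. Dlx3 repeated it at lower level: 1.49 and 2.08 CPM in Mx, 0.423 to 0.830 CPM in FNP, 43.9 ± 6.66 CPM in Md and 119 ± 15.3 CPM in PA2. Counts of Dlx6 and of its antisense gene Dlx6as1 cannot be told apart without strand. Hand2, a bHLH factor of the distal arch, was at 0.399 and 0.0629 CPM in Mx, at 0 in the 3 FNP libraries, and at 64.2 ± 3.91 CPM in Md and 39.0 ± 4.55 CPM in PA2. Its contrast against the mean gave no usable standard error, but Mx was lower than Md by -8.02 ± 0.42 and than PA2 by -7.30 ± 0.42 on the log2 scale. Of the 11 Hox genes of groups 1 to 4 that were tested, none passed edgeR's test against the mean, FNP or Md, nor at an unadjusted p under 0.05, while 5 were lower in Mx than in PA2. The list summed to 0.0955 CPM in Mx, 0.0691 CPM in FNP, 0.355 CPM in Md and 149 CPM in PA2. With Mx, FNP and Md so near 0 counts, the tests against FNP, Md and the mean could hardly pass. Their missing calls therefore do not show equal levels.

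Few genes were lower in Mx than in every other group. Only 107 genes (0.52% of those tested) were lower than the mean and than each of the 3 singly, against 323 (1.57%) that were higher. Plagl1, an imprinted zinc finger gene, was at 8.48 and 5.82 CPM in Mx, 73.0, 83.8 and 80.1 CPM in FNP, 237, 206 and 239 CPM in Md, and 139, 126 and 128 CPM in PA2. The groups were far apart, with a log2 fold change of -4.21 ± 0.41 against the mean. Sdpr, a caveolar coat protein, was at 0.399 and 0.283 CPM in Mx and 6.33 to 12.9 CPM in the 9 others. Meis1, a TALE homeobox cofactor, was at 27.1 and 18.7 CPM in Mx, 46.1 to 86.6 CPM in FNP and Md, and 386 ± 18.8 CPM in PA2.

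Hedgehog targets were lower in Mx than in the arch groups. Of 8 tested, 5 were lower against the mean and none higher (median log2 fold change -0.81), and 7 were lower than Md and 7 lower than PA2, with none higher (2.64% and 4.14% of all genes were lower). Against FNP 3 were lower and 1 higher, beside 8.85% and 7.69% of all genes, and the list summed to 159 ± 9.23 CPM in Mx and 166 ± 18.8 CPM in FNP. Foxf1, a forkhead target of hedgehog signalling, was at 3.56 and 2.61 CPM in Mx, 13.0, 16.3 and 14.9 CPM in FNP, 28.1, 27.1 and 21.6 CPM in Md, and 8.37, 11.6 and 10.2 CPM in PA2. Mx was lowest without overlap, by a log2 fold change of -2.33 ± 0.21; the annotated gene Gm20388 overlaps Foxf1, so how reads were split between them is uncertain. Foxd1, Foxd2 and Hhip were among the other lower members. Gli1 and Ptch1, the general readouts of the pathway, did not pass the test against the mean, which includes FNP. Against Md all 8 tested targets, Gli1 and Ptch1 included, were lower at an unadjusted p under 0.05 in edgeR's test. With 7 of 8 called lower against Md and against PA2, at least 1 of Gli1 and Ptch1 was called lower in each.

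Retinoic acid breakdown genes moved in both directions. Cyp26a1 was at 7.66 and 9.56 CPM in Mx, 0.195 to 0.356 CPM in FNP, 1.38 to 1.98 CPM in Md and 8.65 to 12.7 CPM in PA2, so Mx and PA2 shared the high level. Cyp26b1, a second breakdown enzyme, was at 13.0 and 11.6 CPM in Mx and 17.3 to 31.3 CPM in the 9 others, lower by -0.80 ± 0.15 on the log2 scale. The receptor gene Rarb was intermediate, at 26.4 ± 0.535 CPM in Mx, 70.6 ± 3.86 CPM in FNP, 10.9 ± 1.06 CPM in Md and 6.30 ± 0.406 CPM in PA2. Over the 14 genes of the pathway, 4 were higher than the mean and 1 lower, beside 4.37% and 2.91% of all genes. For 1 of the 4, the call held in only 3 of the 11 fits that each left out 1 wild-type E10.5 library. Against single groups, 3 were higher and 4 lower than FNP, 7 higher and 1 lower than Md, and 5 higher and 1 lower than PA2.

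Notch and endothelin genes had 5 higher and 1 lower member of 12 against the mean, beside 4.37% and 2.91% of all genes. Hey2, a Notch effector, was at 7.15 and 4.97 CPM in Mx and 0.237 to 1.74 CPM in the 9 others. Heyl, its relative, which is not on the list, was at 42.0 and 35.3 CPM in Mx and 1.96 to 9.0 CPM in the others. Both were without overlap, with log2 fold changes of 3.16 ± 0.22 and 2.96 ± 0.18. Mef2c, a target of endothelin signalling in the arch, was at 21.9 and 20.8 CPM in Mx and 6.13 to 14.2 CPM in the others, whereas the receptor gene Ednra was lower in Mx (log2 fold change -0.56 ± 0.13), a call lost without Mx replicate 2. Ednrb, the other endothelin receptor, is also a glial gene and was at 23.9 and 23.0 CPM in Mx and 0.752 to 5.02 CPM elsewhere.

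Sensory neuron genes led the genes of largest fold. Of the 12 named genes of largest fold that were higher in Mx without overlap, 7 were on the neuron lists as transcription factors or structure genes: Prdm12, Neurod4, Nhlh1, Neurod1, Pou4f1, Stmn2 and Neurog1. Of the 93 genes higher by at least 4 log2 units, 21 (22.6%) were on a neuron, glia, placode or central nervous system list, against 59 (6.57%) of all 898 higher genes.

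Neurod1, the bHLH factor of differentiating neurons (ENSMUSG00000034701, chromosome 2, 79452521 to 79456751, minus strand), was at 34.3 and 27.4 CPM in Mx, 0.949, 0.410 and 0.293 CPM in FNP, 0.170, 0.124 and 0 CPM in Md, and 0.0452, 0.0839 and 0.0983 CPM in PA2. Mx was high, all others were under 1 CPM, and the log2 fold change was 7.53 ± 0.43. Prdm12, a factor of pain-sensing neurons (ENSMUSG00000079466, chromosome 2, 31640037 to 31655795, plus strand), was at 18.5 and 16.5 CPM in Mx, 0 in each FNP library, 0.127, 0.124 and 0.0531 CPM in Md, and 0.226, 0 and 0.0983 CPM in PA2. That is at least 499-fold higher than the floor in FNP. Pou4f1, the POU factor of sensory ganglia (ENSMUSG00000048349, chromosome 14, 104462320 to 104467991, minus strand), was at 26.8 and 20.2 CPM in Mx and at no more than 0.382 CPM in any other library. Neurog1, which acts first in placode-derived neurons, was at 6.33 and 4.50 CPM against 0 to 0.205 CPM. Neurod4 (12.7 and 8.87 CPM, against 0 to 0.277 CPM) and Nhlh1 (17.8 and 17.0 CPM, against 0 to 0.514 CPM) act downstream of it. In PA2, Nhlh1 had 2 counts, so the ratio of Mx to PA2 was 578 with a 95% counting interval of 160 to 4778.

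Not every sensory factor was a clean marker. Isl1, which also marks distal mandibular mesenchyme, was at 26.6 and 23.3 CPM in Mx, 1.70, 2.70 and 2.64 CPM in FNP, 6.45, 7.68 and 9.29 CPM in Md, and 1.63, 3.52 and 2.56 CPM in PA2. It was highest in Mx, and Md stood above the other 2. Runx1, used by nociceptors and by blood, was lower in Mx (1.36 and 1.01 CPM, against 1.33 to 5.97 CPM), overlapping Md. Of 20 listed factors 19 matched the table and 18 were tested, with 12 higher and 1 lower against the mean and a median log2 fold change of 5.01, or 4.15 with the 5 genes that had a group at 0 counts set at their bound. Among the 12, 9 had every other library under 1 CPM. Of the 18, 5 reached a mean of at least 5 CPM in another group, so the summed level of the list (480 ± 8.15 CPM in Mx, 470 ± 32.1 CPM in PA2) did not mark neurons.

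Structural genes of neurons gave the broadest shift. Of 26 genes, all tested, 24 were higher in Mx against the mean and none lower, also at an unadjusted p under 0.05, with a median log2 fold change of 3.10 (2.49 with the 5 genes at 0 counts in a group set at their bound). Their summed level was 488 and 457 CPM in the Mx libraries, 114 ± 7.63 CPM in FNP, 128 ± 9.16 CPM in Md and 147 ± 9.45 CPM in PA2. Nefm, the medium neurofilament (ENSMUSG00000022054, chromosome 14, 68082590 to 68124846, minus strand), was at 85.6 and 80.6 CPM in Mx, 2.37, 3.59 and 4.17 CPM in FNP, 2.80, 2.77 and 2.60 CPM in Md, and 3.62, 3.36 and 3.24 CPM in PA2. Mx was high and the other 3 were alike, with a log2 fold change of 4.71 ± 0.18. Nefl, the light neurofilament, lies within the annotated span of Nefm on the opposite strand, so counts of the pair are uncertain where exons overlap. Stmn2, a growth cone protein, was at 21.4 and 22.2 CPM in Mx, 0.581 to 1.03 CPM in FNP, and at most 0.159 CPM in Md and PA2. Dcx (67.6 and 57.2 CPM, against 1.64 to 11 CPM) and Elavl3 (18.2 and 13.6 CPM, against 0.330 to 0.909 CPM) were high in the same way. Gap43, a growth protein that mesenchyme also expresses, was at 81.5 and 82.9 CPM in Mx, 20.8 to 33.6 CPM in FNP, 65.7 to 77.6 CPM in Md and 83.2 to 91.3 CPM in PA2, and passed the test only against FNP and the mean.

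Receptors, channels and peptides of sensory neurons were fewer. Of 20 listed 17 were tested, and 10 were higher than the mean and none lower (median log2 fold change 1.48). Against single groups, 9 were higher and 2 lower than FNP, 10 higher and 1 lower than Md, and 9 higher and none lower than PA2. Ntrk3, the receptor for neurotrophin 3, was at 4.31 and 4.88 CPM in Mx and 0.0395 to 0.424 CPM in the 9 others. Gfra1, a co-receptor for glial-derived factor, was not a neuronal marker here: it was at 13.3 and 11.8 CPM in Mx and at 11.6, 7.04 and 9.28 CPM in FNP, which the test did not tell apart (adjusted p 0.19). Trpv1, Gal and Calcb were not tested because their counts were too low.

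Glial genes were higher in Mx as well. Of 15 listed 14 were tested, 7 were higher and none lower, and the list summed to 168 and 145 CPM in Mx, 73.6 ± 3.30 CPM in FNP, 48.2 ± 1.99 CPM in Md and 57.1 ± 2.04 CPM in PA2. Sox10, the factor of crest-derived glia (ENSMUSG00000033006, chromosome 15, 79154913 to 79164490, minus strand), was at 30.8 and 21.8 CPM in Mx, 2.10, 2.02 and 1.24 CPM in FNP, 1.44, 0.784 and 0.584 CPM in Md, and 4.66, 3.48 and 2.90 CPM in PA2. Mx lay above all 9 without overlap, with a log2 fold change of 3.84 ± 0.24. Fabp7, a fatty acid binder of glial precursors, was at 37.4 and 31.8 CPM against 1.23 to 2.22 CPM. In bulk samples, more cells of a type and more RNA of that type per cell cannot be told apart, so these values give no share of neurons or glia.

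Markers of other tissues gave the following levels beside the neuronal result. Central nervous system regulators had 0 of 14 tested genes higher and 1 lower by edgeR's test, and 1 each at an unadjusted p under 0.05. Placode genes had 3 of 10 higher (Eya2, Eya1 and Six4, the last not called when either Mx library was left out) and 1 lower. The epithelium list had 0 of 9 called by edgeR's test against the mean (0 higher and 3 lower at an unadjusted p under 0.05), and its sum was 2.96 and 4.49 CPM in Mx and 4.16 to 18.5 CPM in the 9 others. Against FNP 5 of these 9 were lower, and against PA2 2 were higher and 1 lower. The endothelium list was lower, with 4 of 10 genes called and sums of 4.65 and 4.75 CPM in Mx against 7.53 to 10.9 CPM. Globin and other erythroid genes had 5 of 8 higher against the mean, but their sums were 346 and 416 CPM in Mx, 25.5 to 52.1 CPM in FNP, 226 to 291 CPM in Md and 181 to 438 CPM in PA2. None of the 8 passed edgeR's test against Md or PA2 (1 and 0 higher at an unadjusted p under 0.05), reads of globin paralogs are uncertain, and without Mx replicate 2 only 1 of the 8 was called higher. The part of any of these cells in the Mx result was not tested.

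The 2 Mx libraries were compared with each other list by list. Over genes at 5 CPM or more, 10 of 12 sensory factors and 7 of 8 glial genes were higher in replicate 1, with median log2 differences of 0.18 and 0.12. For neuron structure genes it was 8 of 16, and for all 11033 genes 5563. Of the frontonasal genes 7 of 8 were higher in replicate 1 (median 0.21), and of the erythroid genes 0 of 5 (median -0.28). With 2 libraries these are values, and no test was made.

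**Figure D3:**
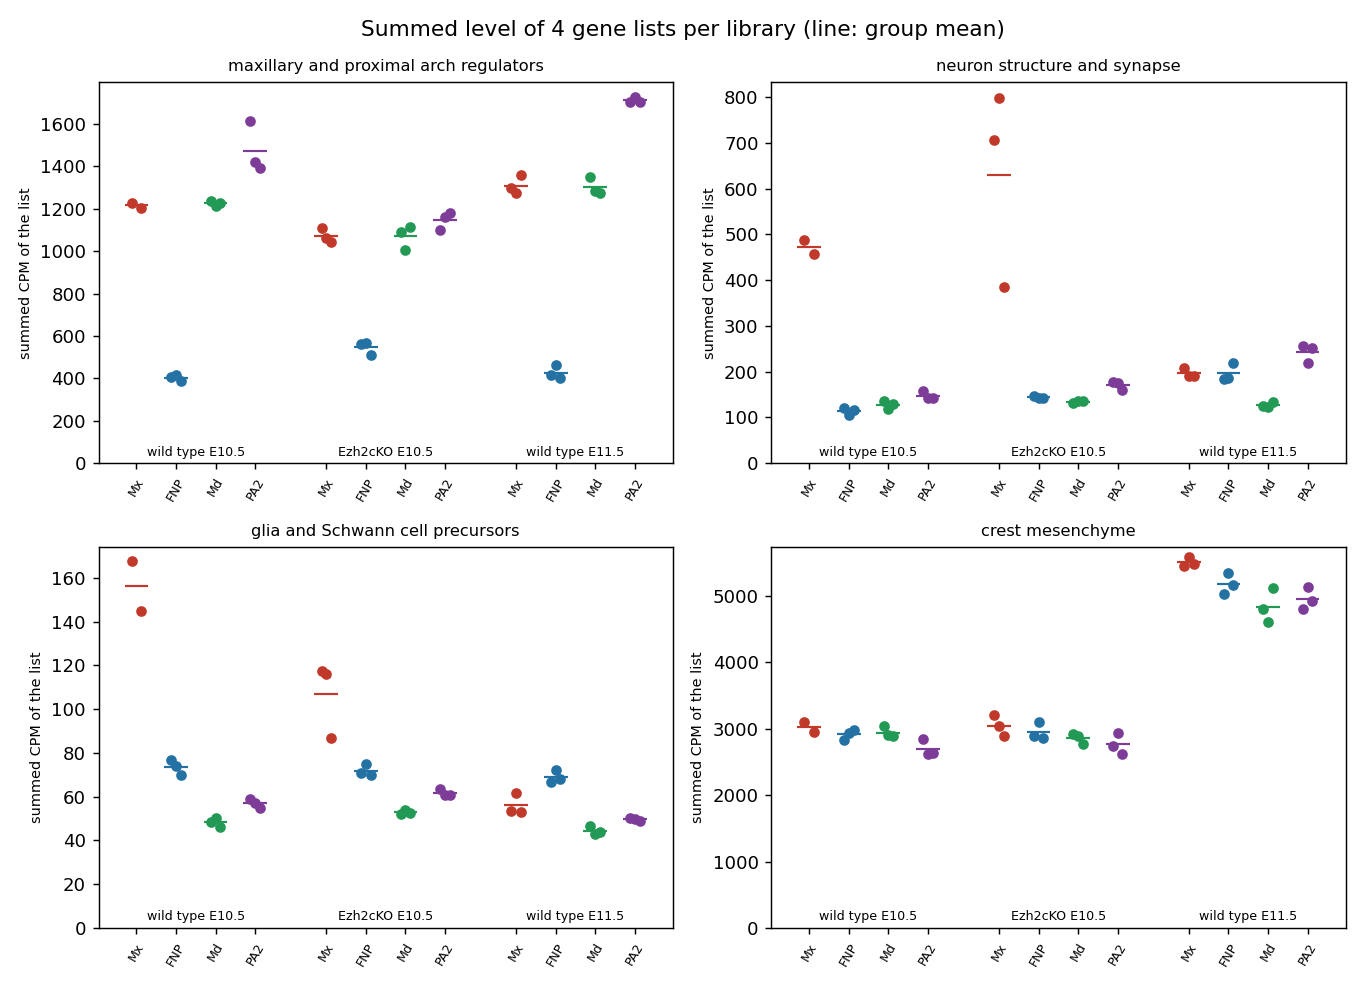
Summed CPM of 4 gene lists in each library (points) with the group mean (line), for wild type and Ezh2cKO at E10.5 and wild type at E11.5. The neuron and glia lists are highest in Mx in both genotypes at E10.5 and not at E11.5, and the maxillary list in Mx sits near Md and below PA2 in wild type on both days.

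The same contrast was taken at E11.5 in separate libraries. Of the 898 genes higher in Mx at E10.5, 303 were also higher at E11.5, which is 33.7% of the first list and 25.2% of the 1200 higher at E11.5 (5.84% of genes tested, 11.3% with the lower ones). Another 72 were lower at E11.5 and 523 were not called. Lower genes overlapped more, with 295 of 598 (49.3%, and 26.1% of the 1130 lower at E11.5, 5.50% of genes tested). The counts at E11.5 were 776 higher and 855 lower without E11.5 Mx replicate 3. The difference of the Mx contrast between the days was called larger at E10.5 for 645 genes (3.14%) and smaller for 418 (2.03%), together 5.17% of genes tested. Without Mx replicate 1 of E10.5 these counts were 405 and 204, and without replicate 2 the latter was 181.

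Most maxillary regulators were higher on both days. Of the 14, 11 were higher at E11.5 and 1 lower. Lhx6 was at 174 CPM in E11.5 Mx, with a log2 fold change of 3.86 ± 0.15 on that day, and its difference between days did not pass the test (0.62 ± 0.26, adjusted p 0.20). Lhx8 was at 155 CPM with 1.88 ± 0.12, and its difference between days did not pass either (0.46 ± 0.21, adjusted p 0.26). Foxl2 was at 16.4 CPM with 5.58 ± 0.25, and AC120148.1 at 55.0 CPM with 5.49 ± 0.21. Hey2 was at 6.06 ± 1.54 CPM in Mx at E10.5 and at 79.1 CPM at E11.5, with contrasts of 3.16 ± 0.22 and 3.41 ± 0.16. Of the other regulators, Dlx1 (difference 1.17 ± 0.20), Dlx2 (1.2 ± 0.27), Sim2 (1.52 ± 0.38) and Tfap2b (3.29 ± 0.28) had a larger contrast at E10.5. The Mx level of Tfap2b was 47 ± 4.78 CPM at E10.5 and 15.6 CPM at E11.5, and its contrast at E11.5 was 0.01 ± 0.15.

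The neuronal and glial genes that were higher at E10.5 were followed to E11.5. Of the 59 genes of neuron, glia, placode or central nervous system lists that were higher at E10.5, 23 (39.0%) were higher at E11.5, and for 30 (50.8%) the contrast was called larger at E10.5, against 359 of the 839 other higher genes (42.8%). The difference between these shares was not tested, and both sets were chosen for being high at E10.5. Nefm was at 83.1 ± 3.55 CPM in Mx at E10.5 and at 6.23 CPM at E11.5, and its contrast turned from 4.71 ± 0.18 to -0.61 ± 0.19 (difference 5.32 ± 0.28). Ntrk3 turned likewise, from 4.75 ± 0.29 to -1.26 ± 0.34 (difference 6.01 ± 0.47). Sox10 was at 2.86 CPM and Fabp7 at 2.54 CPM in E11.5 Mx, with differences of 3.01 ± 0.37 and 2.83 ± 0.30. Stmn2 was the exception in level, at 38.4 CPM in E11.5 Mx, yet its contrast was smaller than at E10.5 (2.12 ± 0.17, difference 4.61 ± 0.37).

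Several sensory transcription factors were under 1 CPM in Mx at E11.5. The list as a whole had 7 of 18 genes higher than the mean and none lower on that day, and summed to 410 ± 33.8 CPM in Mx. In E11.5 Mx, Neurod1 was at 0.929 CPM, Pou4f1 at 0.641 CPM, Prdm12 at 0.296 CPM, Nhlh1 at 0.342 CPM and Neurog1 at 0.0471 CPM. Neurod1 was still called higher than the mean of the other 3 (3.90 ± 0.73), and its difference between days did not pass the test (3.63 ± 2.13, adjusted p 0.47). For Prdm12, Nhlh1 and Neurog1 the difference between days gave no usable standard error. Isl1 was at 0.899 CPM in Mx, with a difference of 3.38 ± 0.55. The summed level of neuron structure genes in E11.5 Mx was 196 ± 10.1 CPM, beside 196 ± 20.1 CPM in FNP, 128 ± 5.69 CPM in Md and 242 ± 21.0 CPM in PA2. Of the 26 genes 8 were higher than the mean on that day and 2 lower.

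**Figure D4:**
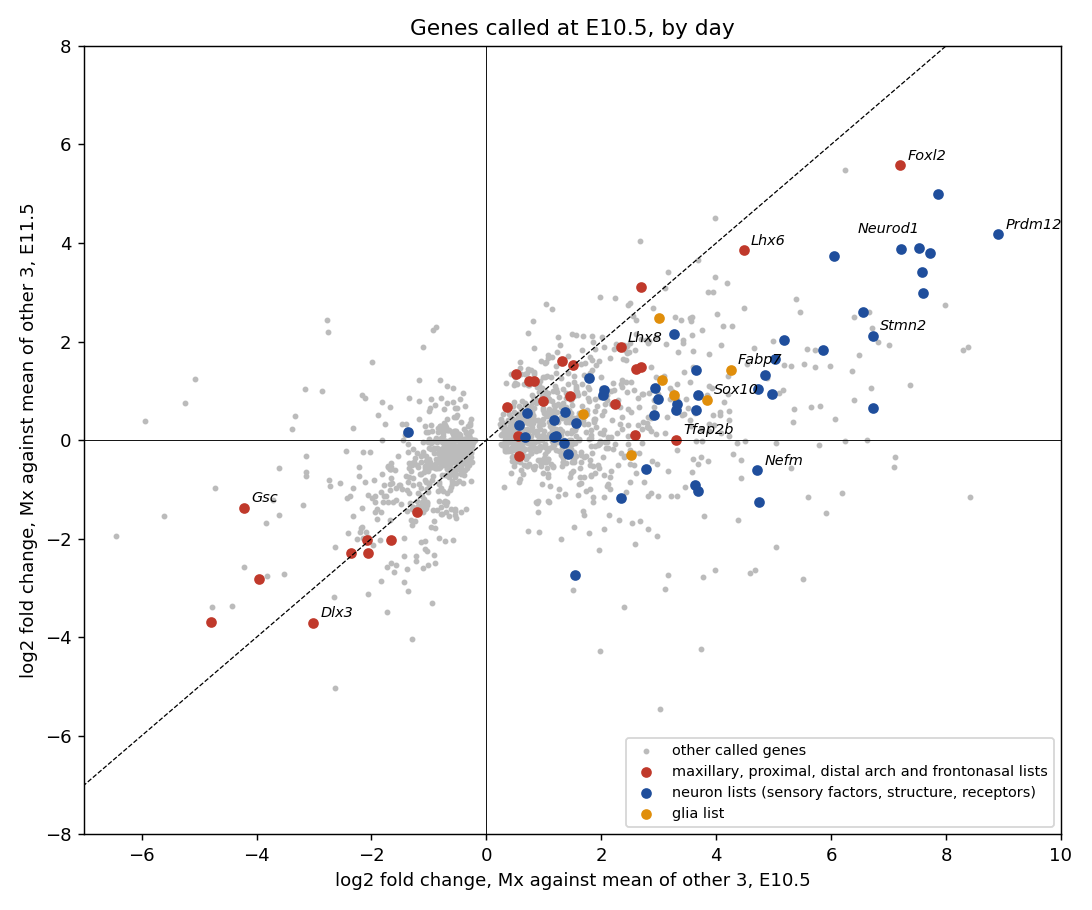
Log2 fold change of Mx against the mean of the other 3 at E10.5 (x axis) and E11.5 (y axis) for each gene called at E10.5; red points are arch and frontonasal lists, blue points neuron lists, orange points glia, grey points other genes, and the dashed line marks equal contrasts. Lhx6 and Lhx8 lie near the line, Foxl2 lies somewhat below it, and Neurod1, Nefm and Sox10 lie farther below.

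The Ezh2cKO libraries gave the contrast again at the same age in a mutant background. Ezh2 encodes the histone H3 lysine 27 methyltransferase of Polycomb repressive complex 2. Its level was 359 and 365 CPM in wild-type Mx and 129 to 154 CPM in the Mx libraries of Ezh2cKO, which do not overlap. In the mutant, 908 genes were higher in Mx than the mean of the other 3 mutant groups and 573 lower (4.42% and 2.79%, together 7.2%). The count of lower genes was 295 without Mx-Ezh2cKO replicate 3 and 335 without replicate 2. Of the 898 genes higher in wild type, 617 were higher in Ezh2cKO (68.7%, and 68.0% of 908) and none lower. Of the 59 neuronal and glial list genes, 56 were higher there too (94.9%). Neuron structure genes summed to 384 to 798 CPM in the mutant Mx libraries and to 132 to 177 CPM in the other mutant libraries, so the high level was present in 5 of 5 Mx libraries of E10.5 over both genotypes. Neurod1 averaged 37.0 CPM and Prdm12 8.45 CPM in mutant Mx. Lhx6 was at 108 CPM with a log2 fold change of 2.76 ± 0.15, and Gsc at 1.96 CPM with -1.49 ± 0.20. Whether contrasts differed between genotypes was not tested.

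A set of 55 genes was higher in Mx at E10.5 against the mean and against each other group, higher again at E11.5, at 5 CPM or more and on no neuronal or glial list. The largest folds among them were not all mesenchymal. Besides Foxl2, AC120148.1, Lhx6, Hey2 and Heyl they included Ppp1r17 (10.7 and 9.16 CPM in Mx, at most 0.106 CPM in the 9 others) and Myt1, a zinc finger factor of neurons (11.1 and 9.94 CPM, at most 0.295 CPM). Both had the on-or-off pattern of the sensory factors. Pappa2, a protease of insulin-like growth factor binding proteins, was at 7.45 and 7.49 CPM in Mx at E10.5 and 0.454 to 3.12 CPM in the 9 others, and between 10.1 and 20.1 CPM in Mx at E11.5.

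Outside all lists, 174 genes at 5 CPM or more were higher at E10.5 with a contrast called smaller at E11.5, and Myt1 is in this set as well as in the one before. Sst, the somatostatin peptide, was at 11.8 and 8.02 CPM in Mx and at most 0.170 CPM in the 9 others, at least 286-fold above the floor of FNP. Srrm4, a splicing factor of neurons that overlaps 2410137F16Rik on the opposite strand, was at 36.9 and 29.4 CPM in Mx and at most 0.989 CPM in the others. Onecut1, a homeobox factor, was at 6.62 and 4.81 CPM, against at most 0.170 CPM. Each of these 3 was at most at 1.82 CPM in the E11.5 Mx libraries. Hpgd, which breaks down prostaglandins, took the reverse course: it was at 1.38 and 1.2 CPM in E10.5 Mx and 81.9 to 95.9 CPM in E11.5 Mx, with a contrast that went from -2.78 ± 0.26 to 2.45 ± 0.14 (difference -5.23 ± 0.30).

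Likeness of pattern was described for Lhx6 and for Neurod1, whose group patterns differ. Over 11628 genes and the 11 libraries of wild type at E10.5, the genes most like Lhx6 by Pearson's r of log2(CPM + 0.5) were Prrx1 (0.993), Gria1 (0.986), Lhx8 (0.984), Fgf10 (0.983) and Mycn (0.981). Those most like Neurod1 were Nhlh1 (0.998), Ina (0.993), Srrm4 (0.993), Neurod4 (0.991) and 2410137F16Rik (0.989). In Md the level of Lhx6 was high where Neurod1 was near 0. No gene was in both sets, but this is no added support, because genes with such unlike patterns would hardly share their closest genes. The libraries of a group share their dissection, so the r values are a description of 4 group means. Gria1, a glutamate receptor subunit, had the pattern of Lhx6 and not of the neurons: it was at 13.4 and 12.1 CPM in Mx, 0.514 to 1.06 CPM in FNP, 6.27 to 7.22 CPM in Md and 1.33 to 2.35 CPM in PA2.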

How the data were processed

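RNA was extracted from sorted cranial neural crest cells, and unstranded libraries were sequenced as single 50-base reads, per the labels' protocols. The deposited table holds unnormalised whole-number counts of reads for each gene, as the file headers show. Demultiplexing used bcl2fastq 2.17 and the build was GRCm38 (mm10), per the submitters' processing notes; which aligner, counting tool and annotation were used is not given in the sources used here. Across the table, 22 column names recur with identical values, and each was used once.

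All 47 libraries in 16 groups entered 1 model in edgeR 4.0.16 (R 4.3.3, limma 3.58.1), with low genes removed by filterByExpr over groups (at least 10 counts, total at least 15), TMM scaling, and a mean per group, on 31 residual degrees of freedom. Contrasts were tested with the quasi-likelihood test, with Benjamini-Hochberg adjustment over the 20560 genes tested within each, and called at 0.05. Standard errors come from the F statistic, and errors beside CPM are SD. Contrasts within E10.5 share the Mx libraries, so their results are not independent. Where a group had 0 counts, a bound against 3 counts is given, and with 1 to 3 counts a ratio with its 95% counting interval. DESeq2 1.42.0 was an alternative. The fit was tested on simulated counts of 19729 genes: 94% of 2-fold and 100% of 4-fold changes between Mx and the mean of 3 were recovered, with 11 false calls. Changes were put only into genes at a mean of 5 CPM or more. All other groups had the same level, and the spread was that fitted to these data. The recovery therefore does not cover genes near 0 counts in a group or genes with unequal other groups.

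Gene lists came from general knowledge, and the lists and the comparison were chosen with earlier results of these data known. Named genes are the 2 markers, up to 6 called members of largest fold per list, the 12 higher and 12 lower genes of largest fold at 5 CPM or more without overlap between groups, the 15 of largest fold among those higher on both days and outside neuronal lists, the 15 among those with a smaller contrast at E11.5, and the 5 most like Lhx6, Lhx8 and Neurod1. Further members of a list are named as examples chosen after their values were seen, and some members are not reported here. Symbols shared by 2 or more identifiers (4004 genes) were followed by identifier. Libraries of E8.5 and of other genotypes entered the fit only.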

Additional observations from a re-analysis of the deposited data

Results flagged for a closer look

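Each value here is the difference of the Mx contrast (log2 fold change of Mx against the mean of FNP, Md and PA2) between E10.5 and E11.5, picked out because the test of that difference passed in edgeR's quasi-likelihood test, adjusted over all 20560 genes. Among the genes named above it passed for 37, of which 27 had the higher contrast at E10.5 and 10 at E11.5.

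Genes known from neurons had a higher contrast at E10.5: Sst 9.58, Onecut1 7.38, Ntrk3 6.01, Srrm4 5.63, Nefm 5.32, Myt1 4.96, Stmn2 4.61, Ina 4.03, Elavl3 3.68, Isl1 3.38 and Dcx 3.05, with 4.46 for the unnamed transcript 2410137F16Rik. The values of Sst and Onecut1 depend on groups near 0 counts. Glial genes had 3.66 for Ednrb, 3.01 for Sox10 and 2.83 for Fabp7.

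Patterning genes with a higher contrast at E10.5 were Tfap2b (3.29), Sim2 (1.52), Dlx2 (1.2) and Dlx1 (1.17). The same held for Gfra1 (3.52), Cyp26a1 (2.0), Pappa2 (1.77), Heyl (1.68), Eya2 (1.60), Foxc1 (1.44), Foxd1 (0.98) and Fgf10 (0.96). A higher contrast at E11.5 was found for Hpgd (-5.23), Sdpr (-3.75), Gsc (-2.85), Foxf1 (-2.58), Plagl1 (-1.63), Runx1 (-1.53), Gli1 (-1.12), Cyp26b1 (-0.83), Meis1 (-0.79) and Mef2c (-0.53).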

How the results depend on the processing

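None of the 121 named genes changed direction against the mean at E10.5 in any alternative run that gave it an adjusted p. The runs were DESeq2, its size factors, no filter on low counts, mitochondrial genes left out, and the neuronal and glial lists left out. Further runs took only the 11 wild-type libraries of E10.5, used the replicate block, or left out single libraries in turn. Directions of single genes in the other contrasts were not compared. The counts of genes called moved by more than 1.5 times only when a library was left out. Over those fits the higher and lower genes ran from 562 to 923 and 255 to 626 against the mean, 961 to 1566 and 777 to 1810 against FNP, 529 to 838 and 342 to 562 against Md, and 620 to 966 and 515 to 881 against PA2. At E11.5 they ran from 776 to 1258 and 855 to 1146, for the difference between days from 405 to 658 and 181 to 423, and in Ezh2cKO from 634 to 904 and 295 to 561. Called erythroid genes ran from 1 to 6. Fits without an Mx library of E10.5 leave 1 library there, assumed to vary like the other groups. Of 121 named genes, 16 lost their call under some alternative. With the replicate number as a block, 930 and 622 genes were called against the mean, 1704 and 1915 against FNP, 819 and 547 against Md, 976 and 867 against PA2, 1209 and 1134 at E11.5, 663 and 442 for the difference between days, and 912 and 577 in Ezh2cKO. Same-numbered deviations correlated from -0.113 to 0.329 over 15 same-numbered pairs of libraries, above 0.1 in 8; between Md and PA2 all were above 0.1 (0.142 to 0.253), and between FNP and Md none was. The numbers were thus not taken to pair all groups, which is a hint from the data and not the design. Depth sets a floor of 3 counts per group for genes at 0, so folds of the neuronal factors are bounds there.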

Other observations

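Muscle and mesoderm genes were measured as a further check of what the sorted cells held. Of 9 tested, 2 were higher in Mx than the mean and none lower, beside 4.37% and 2.91% of all genes. Lhx2, a LIM homeobox factor of head mesoderm and of other tissues, was at 5.03 and 6.45 CPM in Mx and 0.0983 to 1.11 CPM in the 9 others. It was at 23.6 to 47 CPM in the Mx libraries of Ezh2cKO and 0.0848 to 0.355 CPM in Mx at E11.5. Actc1, the cardiac and early muscle actin, was at 2.42 and 1.86 CPM in Mx and 0.0326 to 0.543 CPM in the 9 others.

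Cell-cycle genes had 0 of 12 higher than the mean by edgeR's test and 1 lower (0 and 2 at an unadjusted p under 0.05). Against FNP 4 of the 12 were lower and 1 higher, beside 8.85% and 7.69% of all genes. Against Md 0 were called, and against PA2 1 was higher and 0 lower. The list summed to 3645 ± 42.2 CPM in Mx, 4555 ± 103 CPM in FNP, 3735 ± 106 CPM in Md and 4042 ± 301 CPM in PA2. The gene lower than the mean was Top2a, at 1006 and 985 CPM in Mx and 1029 to 1460 CPM in the 9 others. Its call held in only 4 of the 11 fits that each left out 1 wild-type E10.5 library. Feedback genes of BMP, FGF and Wnt signalling had 1 of 16 higher (6.25%), Dusp6, and none lower. That share is near the 4.37% of all genes that were higher. Single groups differed more: 3 feedback genes were higher and 3 lower than FNP, and 2 higher and 2 lower than Md. Against PA2, 6 of the 16 were higher (37.5%, beside 4.62% of all genes) and none lower. The leukocyte list had 0 of 5 tested genes called by edgeR's test against the mean, with 1 higher at an unadjusted p under 0.05, and 1 lower against FNP.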
